A study of Oryza sativa with 6 samples.

Results

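Abscisic acid is a stress hormone of plants that is made from carotenoids and is broken down by oxidation. This account covers 6 rice genes for the enzymes at the start of its dedicated synthesis and of its breakdown, out of 39367 genes in the deposited table. They were chosen by identifier: 3 ABA-8'-hydroxylase genes and 3 genes for 9-cis-epoxycarotenoid dioxygenases. The choice was made with the genotype difference of these genes already known, above all the higher counts of ABA-8'-hydroxylase 2 in CTB3-cr1, so the genotype differences of the 6 genes are given as a description. Where counts of the 6 past a threshold over all genes are listed, they stand beside the share of all genes and nothing is read from them. Other gene lists were also chosen with earlier results of these data known, so nothing is read from their counts past a threshold either.

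The dioxygenases cleave epoxycarotenoids inside plastids to xanthoxin, the step held to limit how much abscisic acid a tissue makes. The 8'-hydroxylases are cytochrome P450 enzymes that oxidise abscisic acid to a product that turns into phaseic acid, the main route of inactivation. In rice, abscisic acid that builds up in anthers during cold at the young microspore stage has been linked to pollen sterility, and both enzyme families are counted among the genes that set its level there.

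RNA was sequenced from panicles of 2 rice genotypes, with 3 libraries each that the labels call biological replicates. The tested genotype was CTB3-cr1, a single line whose genotype label is a knockdown of CTB3 and whose columns in the table are headed KO. It was set against wild-type Nipponbare, the japonica cultivar also written Nip. Both groups had been in the cold, under a treatment called CS-PT that the labels do not spell out, for 1 day, so the values compare genotypes within the cold and not cold with warmth, and hormone amounts were not measured. With a single line, an effect of CTB3 and any other difference between that line and Nipponbare cannot be told apart. The labels do not say whether the replicates came from separate plants, so p-values measure the spread between these libraries, which may be technical.

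Libraries held 14422565 to 16982031 counts. All 7 MADS-box floral marker genes and all 3 meiosis markers were detected in every library. On the first principal component Nipponbare replicate 2 stood off, with a score of 80.3 against -54.8 to 17.2 in the rest, and on the second Nipponbare replicate 3 did, with 67.1 against -43.0 to 20.9. Without Nipponbare replicate 2 the log2 fold changes of the 5 genes that could be fitted were 1.01 for ABA-8'-hydroxylase 2, -0.29 and 0.36 for ABA-8'-hydroxylases 1 and 3, and 0.47 and 0.69 for the dioxygenase genes Os03g0645900 and Os12g0617400. The level of CTB3 itself was not examined, as neither table nor labels tie that symbol to an identifier.

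ABA-8'-hydroxylase 2 had the highest counts of the 6 and was the one that separated the genotypes. The other hydroxylases and the dioxygenases had low counts and overlapped between the genotypes. Levels are given as FPKM, which scales reads to gene length and library total, and as raw read counts. Comparing FPKM between these genes is limited by the overlapping genes described below. The deposited names of the 3 hydroxylase genes matched their label. The table numbers the 3 dioxygenases 1, 2 and 3 and gives the numbers 1 and 2 to another gene each (Os02g0704000 and Os12g0435200), so the dioxygenases are called here by their identifiers. Coordinates are those of the table, and no source used here names their genome build.

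ABA-8'-HYDROXYLASE 2 (Os08g0472800) lies on the minus strand of chromosome 8 from 23288613 to 23294162. Its read counts were 926, 1163 and 1194 in the CTB3-cr1 libraries, against 565, 400 and 525 in the Nipponbare libraries. As FPKM these were 27.0, 32.6 and 31.3 in CTB3-cr1, against 16.1, 12.9 and 13.9 in Nipponbare. The lowest CTB3-cr1 library thus stood well above the highest Nipponbare library. Its level averaged 30.3 FPKM ± 2.93 in CTB3-cr1 and 14.3 FPKM ± 1.64 in Nipponbare (SD, n = 3 each). The fitted log2 fold change was 1.07 ± 0.13 (SE), or 2.11-fold higher in CTB3-cr1. The within-group SD of log2 CPM (counts scaled to library size) was 0.148, beside a median of 0.249 over all genes tested. Of those genes 72.7% had a lower mean FPKM, and this gene was chosen with its difference known, so nothing is read from that comparison. The summed counts of 3283 in CTB3-cr1 and 1490 in Nipponbare gave a ratio of 2.10. Its 95% exact (Clopper-Pearson) interval of 1.98 to 2.24 covers counting error only and is likewise given as a description. Over the 6 fits that each left out 1 library the log2 fold change ranged from 1.01 to 1.17.

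**Figure D1:**
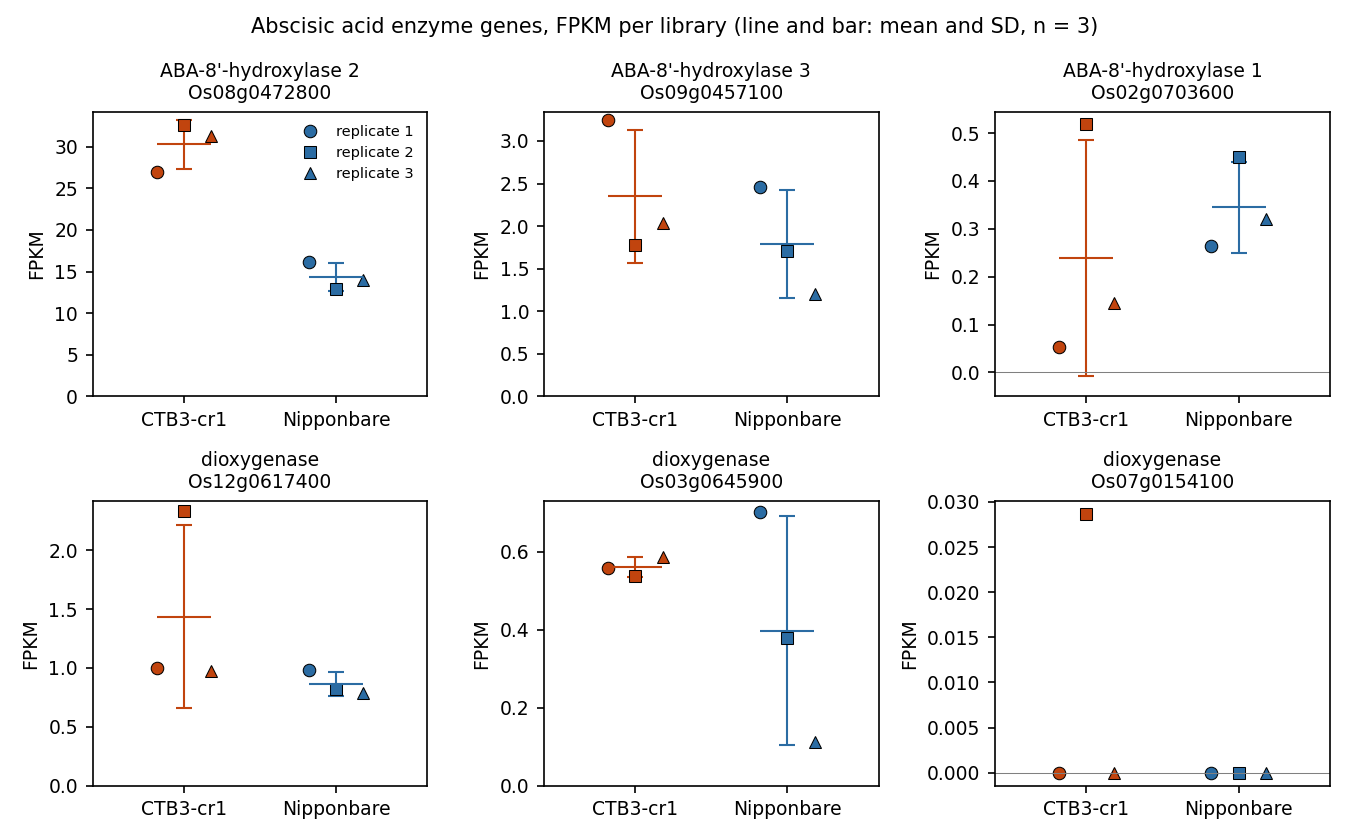
FPKM of the 6 enzyme genes in each library, one panel per gene with its own linear axis, CTB3-cr1 left and Nipponbare right; symbols are libraries by replicate number, and the line and bar are the mean and SD (n = 3; not drawn for Os07g0154100, which had 1 read in all). The genotypes separate for Os08g0472800 (27.0 to 32.6 FPKM in CTB3-cr1, 12.9 to 16.1 FPKM in Nipponbare) and overlap for the other 5 genes.

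In bulk tissue, a change in the number of cells of a type and a change in RNA per cell cannot be told apart. Markers of the tapetum, the inner anther layer that nourishes pollen, had a summed level that did not overlap between genotypes either, with CTB3-cr1 lower. The 9 tapetum markers summed to 1156 to 1462 CPM in CTB3-cr1 libraries and 1791 to 2605 CPM in Nipponbare libraries. The most abundant, Os10g0484800, weighs most in this sum, with 483 to 707 CPM in CTB3-cr1 and 952 to 1372 CPM in Nipponbare. The next, Os02g0120500, overlapped, with 323 to 417 CPM in CTB3-cr1 and 329 to 530 CPM in Nipponbare. The sum therefore does not stand for all 9 alike. Of these 9 genes, 0 were called in edgeR (0.0156% of all genes tested were called lower), and 5 had an unadjusted p under 0.05 (5.25% of all genes tested). In 5 every CTB3-cr1 library was below every Nipponbare library (5.36% of all genes tested), and 8 had a negative log2 fold change. The authors' deposited table calls 4 of the 9 lower, beside 0.409% of its genes with an adjusted p. This list was chosen with earlier results of these data known, so nothing is read from these counts. All 9 markers had reads in every library, and their part in the difference of ABA-8'-hydroxylase 2 was not tested.

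ABA-8'-HYDROXYLASE 3 (Os09g0457100; minus strand of chromosome 9, 17252034 to 17255420) was the next most abundant, far below its relative. The CTB3-cr1 libraries held 93, 53 and 65 of its reads and the Nipponbare libraries 72, 44 and 38, which is 3.24, 1.78 and 2.04 FPKM in CTB3-cr1, against 2.46, 1.70 and 1.21 FPKM in Nipponbare. Replicate 1 was the highest library in both genotypes, and the groups overlapped. The log2 fold change of 0.39 ± 0.37 (SE) was about as large as its error, and leaving out replicate 1 of CTB3-cr1 gave 0.10, leaving out replicate 1 of Nipponbare 0.69.

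ABA-8'-HYDROXYLASE 1 (Os02g0703600; plus strand of chromosome 2, 28995717 to 28998452) had few counted reads. The CTB3-cr1 libraries held 2, 20 and 6 reads of it, the Nipponbare libraries 10, 15 and 13. CTB3-cr1 replicate 2 held 20 of the 28 reads of its group, and its 0.519 FPKM was the highest of all 6 libraries, while replicate 1 had 0.0540 FPKM, the lowest. The log2 fold change of -0.52 ± 0.73 (SE) became -1.73 without CTB3-cr1 replicate 2 and -0.053 without CTB3-cr1 replicate 1. The groups overlapped.

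Among the dioxygenases Os12g0617400 was the most abundant; the table describes it as Viviparous-14, the name of the maize gene through which this enzyme was first cloned. It lies on the plus strand of chromosome 12 from 26269318 to 26270792. Its counts were 23, 56 and 25 in CTB3-cr1, against 23, 17 and 20 in Nipponbare, or 0.997, 2.34 and 0.975 FPKM in CTB3-cr1, against 0.979, 0.818 and 0.791 FPKM in Nipponbare. Only CTB3-cr1 replicate 2 stood high, and replicate 3 of CTB3-cr1 was just below Nipponbare replicate 1. The log2 fold change was 0.73 ± 0.44 (SE) with all libraries and 0.19 without CTB3-cr1 replicate 2, so that 1 library carried most of it.

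Os03g0645900, on the plus strand of chromosome 3 from 24959201 to 24961260, had 18, 18 and 21 reads in the CTB3-cr1 libraries, against 23, 11 and 4 in those of Nipponbare. The CTB3-cr1 libraries were nearly alike, at 0.559, 0.537 and 0.586 FPKM, whereas the Nipponbare libraries spread over 0.701, 0.379 and 0.113 FPKM and reached above and below them. Its log2 fold change of 0.50 ± 0.59 (SE) was smaller than its error. It was 0.060 without Nipponbare replicate 3, the lowest library, and 1.20 without Nipponbare replicate 1, the highest.

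Os07g0154100, the dioxygenase on the plus strand of chromosome 7 from 2870686 to 2872829, had 1 count in CTB3-cr1 replicate 2 and 0 in the other 5 libraries. It did not pass the filter on low counts, so 5 of the 6 genes were fitted, and no fold change is given because both groups lay under a floor of 3 counts over the group.

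The order of the FPKM levels was the same in both genotypes, within the limit set by the overlapping genes described below. In each, ABA-8'-hydroxylase 2 came first, then ABA-8'-hydroxylase 3, Os12g0617400, Os03g0645900, ABA-8'-hydroxylase 1 and last Os07g0154100. Per library, ABA-8'-hydroxylase 2 exceeded ABA-8'-hydroxylase 3 by 8.32, 18.3 and 15.3 times in FPKM in CTB3-cr1, and by 6.55, 7.59 and 11.5 times in Nipponbare. Further down the order some neighbours did not differ beyond their spread. The FPKM of ABA-8'-hydroxylase 3 and Os12g0617400 overlapped in CTB3-cr1 but not in Nipponbare, and those of Os03g0645900 and ABA-8'-hydroxylase 1 overlapped in Nipponbare but not in CTB3-cr1. Os12g0617400 stood above Os03g0645900 in every library of either genotype. Among the 25636 genes tested, 72.7% had a lower mean FPKM than ABA-8'-hydroxylase 2, 18.8% than ABA-8'-hydroxylase 3, 10.2% than Os12g0617400, 2.21% than Os03g0645900 and 0.562% than ABA-8'-hydroxylase 1.

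Summed over each family, the FPKM of the hydroxylases was above that of the dioxygenases in all 6 libraries. The 3 hydroxylases summed to 30.3, 34.9 and 33.4 FPKM in CTB3-cr1, against 18.9, 15.1 and 15.5 FPKM in Nipponbare. ABA-8'-hydroxylase 2 made up 89.1%, 93.4% and 93.5% of that sum in CTB3-cr1, against 85.5%, 85.7% and 90.1% in Nipponbare. The family sum therefore followed that 1 gene. The 3 dioxygenases summed to 1.56, 2.90 and 1.56 FPKM in CTB3-cr1, against 1.68, 1.20 and 0.904 FPKM in Nipponbare, and here the genotypes overlapped. The hydroxylase sum was 19.4, 12.01 and 21.4 times the dioxygenase sum in CTB3-cr1, against 11.2, 12.6 and 17.1 times in Nipponbare, again with overlap.

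**Figure D2:**
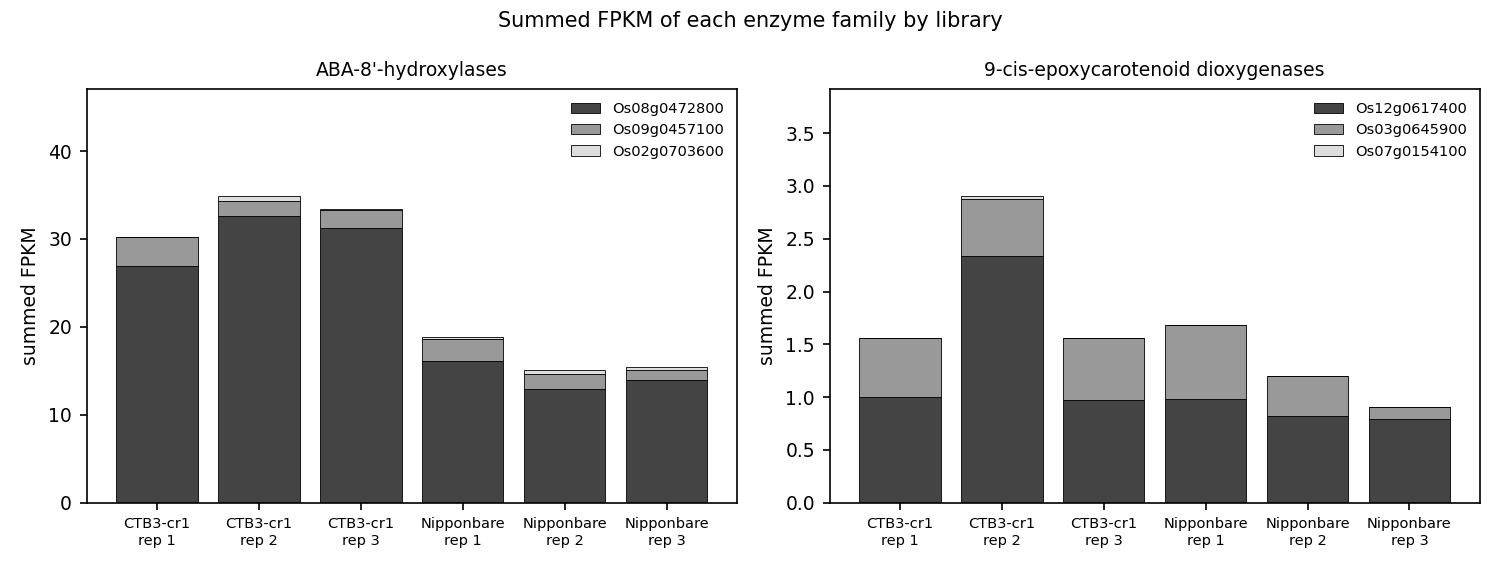
Summed FPKM of the 3 ABA-8'-hydroxylases (left) and the 3 dioxygenases (right) in each library, with bars split by gene and both axes starting at 0. ABA-8'-hydroxylase 2 (Os08g0472800) makes up at least 85.5% of the hydroxylase sum in each library, and the dioxygenase sum stays at or below 2.90 FPKM.

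Over all genes, edgeR's quasi-likelihood test called 0.078% of those tested at an adjusted p of 0.05 (0.0624% higher in CTB3-cr1), and 0 of the 6 enzyme genes were among them. In the authors' deposited table, where 0.621% of the genes with an adjusted p passed (0.212% higher in CTB3-cr1), 1 of the 6 is called, ABA-8'-hydroxylase 2. The groups did not overlap for 10.5% of the genes tested in either direction and for 5.11% in the higher direction, and for 1 of the 6 enzyme genes, ABA-8'-hydroxylase 2. Since this contrast guided the choice of the genes, nothing is read from these counts. Of the 5 fitted genes 4 had positive and 1 a negative value, and the median log2 fold change of 0.50 stood beside a median of -0.0026 over all genes tested.

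**Figure D3:**
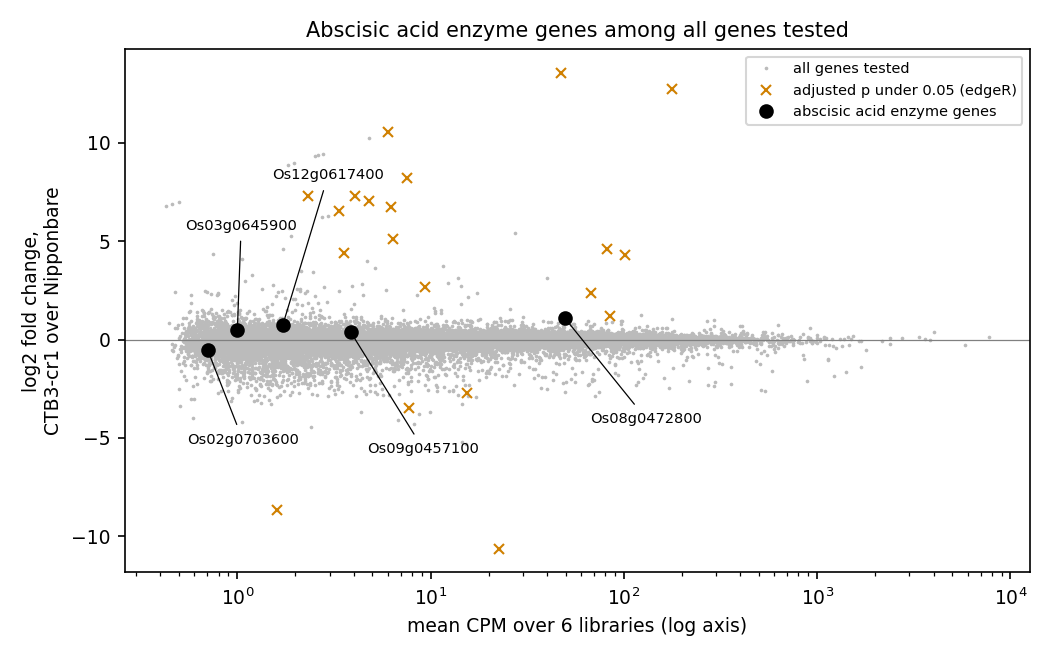
Log2 fold change of CTB3-cr1 over Nipponbare against mean CPM (log axis) for every gene tested, with the 5 fitted enzyme genes in black and the 20 genes past an adjusted p of 0.05 in edgeR as crosses. ABA-8'-hydroxylase 2 sits at 1.07, and the other 4 enzyme genes lie at lower counts between -0.52 and 0.73.

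Each of the 6 genes shares its position with a gene on the opposite strand, annotated as hypothetical. No source used here gives the strand setting of the authors' counting, so reads of such a pair may not be told apart. For 3 of the pairs the opposite gene had no count in any library. Os08g0473200, which overlaps ABA-8'-hydroxylase 2 over 4586 bases, had 1, 0 and 2 reads in the CTB3-cr1 libraries and none in Nipponbare, few beside the 400 to 1194 counts of the hydroxylase. Os09g0457250, which overlaps ABA-8'-hydroxylase 3, had none in CTB3-cr1 and 1, 0 and 2 reads in the Nipponbare libraries. The exception was Os12g0617250, which shares 850 bases with the dioxygenase gene Os12g0617400 and had reads in the same range. It had 23, 80 and 74 in the CTB3-cr1 libraries, against 42, 31 and 75 in those of Nipponbare. How reads from shared bases were assigned is not known. Few or no reads of an opposite gene therefore do not show that the enzyme gene's count was unaffected. The shared stretch was 2547 of 2736 bases for ABA-8'-hydroxylase 1, 1481 of 2060 for Os03g0645900 and 1486 of 2144 for Os07g0154100, whose opposite genes had no reads. It was 4586 of 5550 bases for ABA-8'-hydroxylase 2, 2473 of 3387 for ABA-8'-hydroxylase 3 and 850 of 1475 for Os12g0617400. The low counts, the order of the levels and the family sums all carry this limit, and its size was not tested.

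Among the neighbours by start position that do not overlap an enzyme gene, none passed the test. Os08g0472600, a core alpha-1,3-fucosyltransferase gene that acts in protein glycosylation and lies 7132 bases away, had 1173, 1097 and 1065 reads in the CTB3-cr1 libraries, against 1048, 860 and 1065 in those of Nipponbare (log2 fold change 0.11 ± 0.11, SE). Elsewhere, Os02g0703300 beside ABA-8'-hydroxylase 1 had a log2 fold change of 0.36 ± 0.18 (SE), Os09g0456900 beside ABA-8'-hydroxylase 3 one of 0.01 ± 0.59 (SE), and Os03g0645250 beside Os03g0645900 one of -0.13 ± 0.20 (SE). The edgeR adjusted p of these 4 was 0.973 to 1.00, and the groups did not overlap for Os02g0703300. PROSTRATE GROWTH 1 (Os07g0153600) beside Os07g0154100 and an unannotated locus beside Os12g0617400 had too few reads for the fit, at most 4 in a library. The bZIP factor gene TRAB1 (Os08g0472000), whose product activates abscisic acid-responsive promoters, lies 47988 bases from ABA-8'-hydroxylase 2, and bZIP72 (Os09g0456200), a factor of the same class, lies 58023 bases from ABA-8'-hydroxylase 3. A further dioxygenase gene, Os02g0704000, lies 27646 bases from ABA-8'-hydroxylase 1 and had between 1 and 7 counts in a library.

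Upstream of the dioxygenases, the pathway runs from phytoene through coloured carotenes to zeaxanthin, violaxanthin and neoxanthin, and after xanthoxin it ends with a short-chain dehydrogenase and an aldehyde oxidase that needs a sulfurated molybdenum cofactor. A list of 47 other genes of carotenoid and abscisic acid metabolism was taken by words in the deposited names and by identifier. It also holds aldehyde oxidases of other pathways and the cleavage enzymes and isomerase of strigolactone synthesis. Of its 39 genes past the filter, 0 were called higher and 0 lower in edgeR (background 0.078%), 2 had an unadjusted p under 0.05 (background 5.25%), and the authors' deposited table calls 0. The groups did not overlap for 3 of them in the higher and 1 in the lower direction, beside 5.11% higher and 5.36% lower over all genes tested. Their median log2 fold change was 0.05, beside -0.0026 over all genes tested.

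The 10 most abundant genes of the list had mean levels far above those of the 3 dioxygenases. MHZ4 (Os01g0128300), needed for neoxanthin formation, was the most abundant, at 102.4 FPKM ± 14.7 in CTB3-cr1 and 86.7 FPKM ± 5.16 in Nipponbare (SD, n = 3 each), a log2 fold change of 0.24 ± 0.13 (SE). Beta-carotene hydroxylase 3 (Os10g0533500), an enzyme that makes zeaxanthin, had 55.5, 55.6 and 65.7 FPKM in CTB3-cr1, against 49.6, 47.9 and 39.8 FPKM in Nipponbare. Its groups did not overlap, yet its log2 fold change of 0.36 ± 0.13 (SE) did not pass in edgeR (adjusted p = 0.856). ABA DEFICIENT 2 (Os03g0810800), the short-chain dehydrogenase that acts on xanthoxin, had 29.7, 21.3 and 20.0 FPKM in CTB3-cr1, against 18.2, 14.9 and 17.2 FPKM in Nipponbare. Its groups were likewise separate, and its log2 fold change was 0.50 ± 0.18 (SE), which did not pass either (edgeR adjusted p = 0.855). Neither of these pathway genes is called in the authors' deposited table.

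By step, the 12 genes of carotene synthesis lay closest to 0, with log2 fold changes from -0.25 for zeta-carotene desaturase (Os07g0204900) to 0.15 for the carotenoid isomerase gene Os11g0572700, 7 positive and 5 negative. The abundant phytoene desaturase gene (Os03g0184000), which acts early in this run, had 0.11 ± 0.12 (SE), the phytoene dehydrogenase-like gene Os02g0190900 had 0.12 ± 0.13 (SE), and lycopene epsilon-cyclase (Os01g0581300), which directs carotenes to lutein, had -0.10 ± 0.15 (SE). The 7 xanthophyll genes had a median of 0.24, 6 of them positive, the exception being beta-carotene hydroxylase 2 (Os04g0578400) at -0.10 ± 0.34 (SE). The last steps gave 13 tested genes from -1.18 to 0.67, 8 positive and 5 negative. Among them the aldehyde oxidases Os07g0282401 and Os03g0790900 had 0.04 ± 0.31 (SE) and -0.15 ± 0.40 (SE). The gene deposited as ABA aldehyde oxidase, Os07g0164900, had 0.17 ± 0.11 (SE). Its groups did not overlap, with CTB3-cr1 higher, and it did not pass (edgeR adjusted p = 0.996). The 7 tested genes of carotenoid cleavage had 3 positive and 4 negative values. Among them Os12g0435200, the other gene named as dioxygenase 2, varied more between libraries than between genotypes, with 119, 14 and 9 reads in the CTB3-cr1 libraries, against 26, 0 and 194 in those of Nipponbare. No gene of any step passed in edgeR over all genes.

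**Figure D4:**
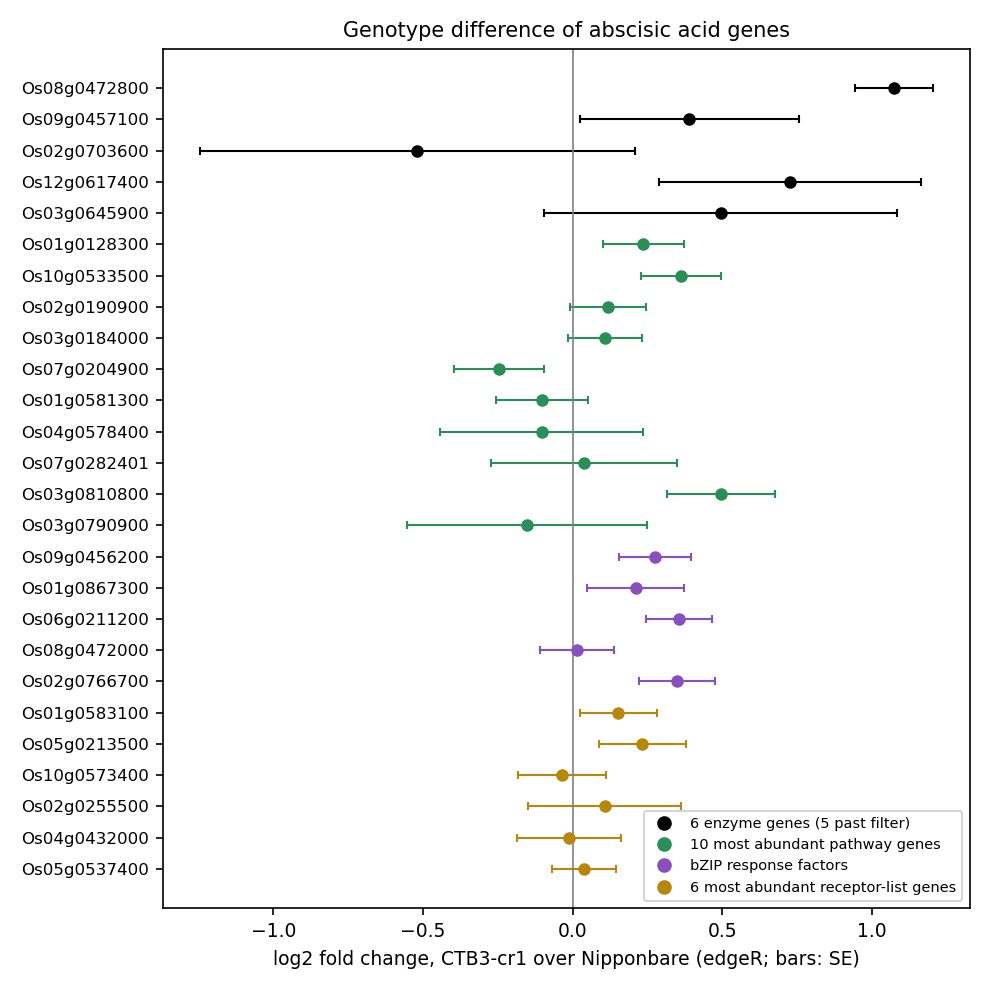
Log2 fold change of CTB3-cr1 over Nipponbare with its standard error from edgeR, for the 5 fitted enzyme genes (black), the 10 most abundant genes of the pathway list (green), the 5 bZIP response factors (purple) and the 6 most abundant genes of the receptor list (gold). ABA-8'-hydroxylase 2 stands at 1.07, and the pathway genes shown lie between -0.25 and 0.50.

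Downstream of the hormone, receptors of the PYL family bind abscisic acid and then inhibit clade A protein phosphatases 2C, which frees kinases of the SAPK family. Of 14 tested genes of this kind, 0 were called in edgeR (background 0.078%), 1 had an unadjusted p under 0.05 (background 5.25%), and the authors' deposited table calls 0 of those listed. Their median log2 fold change was 0.01, with 7 positive and 7 negative. The most abundant, the phosphatase gene Os01g0583100, had 88.4 FPKM ± 1.75 in CTB3-cr1 and 79.3 FPKM ± 9.73 in Nipponbare (SD, n = 3 each). The only kinase among the 14 tested genes was SAPK7 (Os04g0432000), so the SAPK family was not surveyed. The SAPK4-like gene Os05g0433100 was listed but did not pass the filter. Of 7 genes that abscisic acid is known to induce, 5 were tested, 0 were called in edgeR, 0 had an unadjusted p under 0.05, and the authors' deposited table calls 0. DEHYDRIN 1 (Os02g0669100), the most abundant of them, had 149.4, 45.7 and 78.2 FPKM in CTB3-cr1, against 62.1, 56.7 and 136.2 FPKM in Nipponbare. Its spread was wide inside both groups. The other tested genes had at most 73 reads in a library, which limits what their lack of calls shows. The median log2 fold change was 0.09, with 4 positive and 1 negative. The negative one was SALT PROTEIN (Os01g0348900) at -2.03 ± 0.91 (SE), whose groups overlapped.

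The 5 bZIP factors that carry the response all had positive log2 fold changes, from 0.01 to 0.36, with a median of 0.28, and 0 were called in edgeR (background 0.078%). Of the 5, 2 had an unadjusted p under 0.05 (background 5.25%), 3 were higher without overlap (background 5.11%), and the authors' deposited table calls 0. As this list too was chosen with earlier results known, nothing is read from these counts. bZIP72 (Os09g0456200), the most abundant, had 40.2, 41.2 and 37.6 FPKM in CTB3-cr1, against 30.3, 30.6 and 37.3 FPKM in Nipponbare. Its groups were separated by a narrow gap, and its log2 fold change of 0.28 ± 0.12 (SE) did not pass (edgeR adjusted p = 0.942). TRAB1 (Os08g0472000) differed least, with 0.01 ± 0.12 (SE). Named after their values were seen, bZIP46 (Os06g0211200) and bZIP23 (Os02g0766700) had 0.36 ± 0.11 (SE) and 0.35 ± 0.13 (SE), with edgeR adjusted p of 0.751 and 0.856, and were the other genes without overlap.

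Across the 6 libraries, the genes whose pattern was most like that of ABA-8'-hydroxylase 2 came from other families. Likeness was the root mean square difference of log2(CPM + 0.5), centred on each gene's mean, over 14051 genes with a mean of at least 5 CPM and a functional name or description, among which the median distance was 0.576. Being picked for likeness, these genes share its genotype difference by construction. The nearest, at 0.214, was Os02g0511600, a family 31 glycosyl transferase gene that adds sugars to other molecules, with 10.1 FPKM ± 0.879 in CTB3-cr1 and 5.46 FPKM ± 1.27 in Nipponbare (SD, n = 3 each). Os11g0100200, similar to the RNA export factor ALY, followed at 0.218, with 30.6 FPKM ± 4.85 in CTB3-cr1 and 14.4 FPKM ± 1.23 in Nipponbare. Next came the bHLH factor gene Os08g0536800 at 0.226, with 32.6 FPKM ± 3.95 in CTB3-cr1 and 18.5 FPKM ± 5.83 in Nipponbare, and the autophagy gene ATG8E (Os11g0100100), whose product coats autophagosomes, also at 0.226. The tRNA methyltransferase gene Os05g0324100 was the last of the 5, at 0.251. Both genes of chromosome 11 lie side by side at its start, Os11g0100100 from 1180 to 4230 and Os11g0100200 from 4400 to 7050. This end is known to be duplicated on chromosome 12, so their counts are uncertain where reads also match a copy there.

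**Figure D5:**
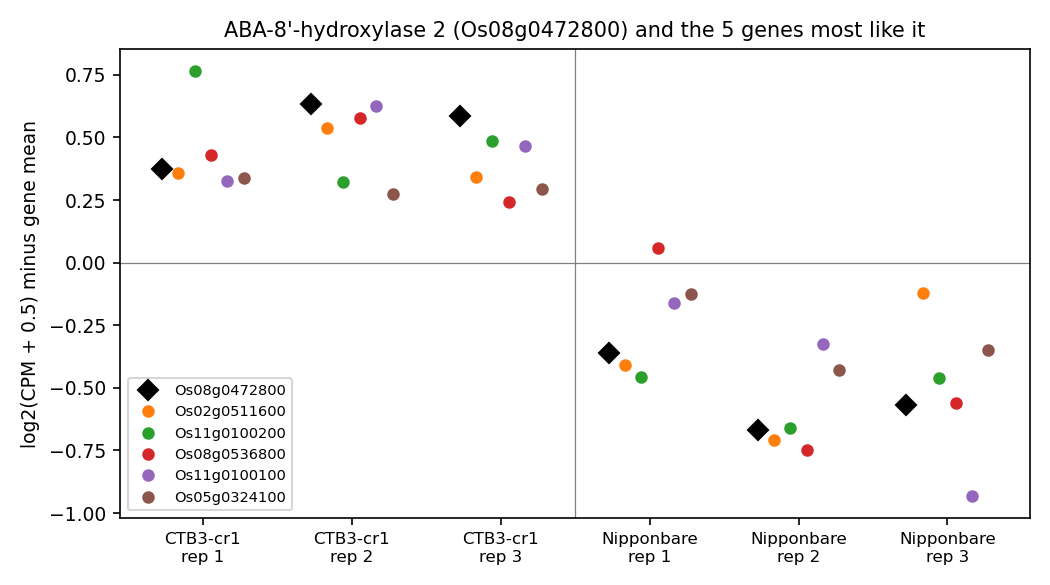
Log2(CPM + 0.5) minus each gene's own mean in the 6 libraries, CTB3-cr1 left of the vertical line and Nipponbare right, for ABA-8'-hydroxylase 2 (black diamonds) and the 5 genes with the smallest root mean square difference from it (0.214 to 0.251). Each of the 6 genes is higher in all CTB3-cr1 libraries than in any Nipponbare library.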

How the data were processed

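Libraries were made from total RNA of panicles with a NEBNext Ultra RNA kit, per the labels' protocols. fastp 0.19.7, HISAT2 and DESeq2 are named in the submitters' processing notes; no source used here names the genome build, annotation or read counter. The deposited table holds raw counts and FPKM per library, per the file headers. It also holds the authors' normalised signal means, log2 fold changes and p-values. FPKM equalled counts over gene length and a library total that was 0.976 to 1.06 times the sum of counts. Of 39369 lines, 2 lack an identifier (at most 0.000478% of counts) and were left out.

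Genotype was tested with edgeR 4.0.16 in R 4.3.3: filterByExpr, TMM factors and the quasi-likelihood F test. The p-values were adjusted over all 25636 genes that passed (Benjamini-Hochberg) and called at 0.05. CPM uses TMM-scaled library sizes. SE is the log2 fold change over the square root of F. Alternatives were DESeq2 1.42.0, limma 3.58.1 (voom, and trend on log2 FPKM), other scalings and filters, a replicate block and each library left out; the scripts were tested on simulated counts.

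The 6 genes and all lists were chosen with earlier results of these data known. Named genes were the 6, their neighbours, the 10 most abundant pathway genes and the 5 nearest to ABA-8'-hydroxylase 2. The most abundant gene of each other list (or any called gene) was named too. Outside this rule, Os02g0704000 and Os12g0435200 share dioxygenase numbers, and TRAB1 lies near ABA-8'-hydroxylase 2. Named after their values were seen were bZIP46, bZIP23, SALT PROTEIN, Os02g0120500, Os07g0164900, SAPK7, Os05g0433100 and Os11g0572700, the highest value of its step. The grouping of pathway genes by step was made after the data were seen.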

Additional observations from a re-analysis of the deposited data

How the results depend on the processing

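ABA-8'-hydroxylase 2 kept a log2 fold change between 1.01 and 1.17 in all 17 alternative fits. It was past the threshold, as 1 of 6 genes, with DESeq2 (which called 0.714% of all genes), with library size alone (0.105%) and with no filter (0.0866%), and 0 of 6 were in the other 14. The cause was not tested, and nothing is read from these counts. Each other fitted enzyme gene kept its sign in every fit that gave it a value. Leaving out 1 library at a time gave log2 fold changes of -1.73 to -0.053 for ABA-8'-hydroxylase 1, 0.10 to 0.69 for ABA-8'-hydroxylase 3, 0.060 to 1.20 for Os03g0645900 and 0.19 to 0.95 for Os12g0617400, and 0 to 0 enzyme genes called. Os07g0154100 has no value to compare. The number of genes called over the whole table was 20, and 202 with DESeq2, 4 with the replicate block and 4 to 16 with 1 library left out. The pathway list had 0 calls in each fit. The deviations of same-numbered libraries correlated at 0.37 for number 2 and at -0.27 and -0.07 for numbers 1 and 3. As not every pair was above 0.1, the samples are taken to share only a number; the block gave 4 calls, against 20 without it, and not every library correlated best with its own number. Counts of at most 93 per library limit what can be said of the other 5 enzyme genes.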
